A study of Homo sapiens with 6 samples.

Results

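Genes of the proteasome were followed after 10 days of exposure to nitric oxide in MDA-MB-468, a widely used human breast cancer cell line of the basal, triple-negative kind whose EGFR gene is amplified. The genes were chosen by symbol: every row whose name was PSM, a letter from A to G and a number, without the immune-inducible subunits PSMB8, PSMB9 and PSMB10 and their companion activators PSME1 and PSME2. That gave 43 of the 45019 rows in the deposited files. One group of cells received 100 µM DETA/NO, a compound that gives off nitric oxide slowly in culture medium, and was trypsinised, pooled within each replicate and replated with fresh compound every 48 h. The other group was untreated. Replating every 48 h, with 4 h for the cells to adhere, is given for both groups, and both were sampled on day 10. Total RNA was sequenced, and each file holds 1 normalized read count per gene, that is, a read count divided by a size factor for the library. Each group had 3 labelled samples, but DETA/NO replicates 1 and 2 hold the same value in every row under the same column header, so they were counted as 1 library. The comparison is therefore of n = 2 DETA/NO libraries with n = 3 untreated libraries. The line is a single cancer line, and the labels do not say whether the replicates were separate cultures, so the p-values reflect the spread among these libraries alone, which may be technical.

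The proteasome is the protease that degrades proteins tagged with ubiquitin. Its core particle is a barrel of stacked rings: the outer rings of alpha subunits form the gate, and the inner rings of beta subunits hold the proteolytic sites. The regulatory particle caps the barrel and consists of a base, whose ring of ATPases unfolds substrates and threads them into the core, and a lid, which removes the ubiquitin chain. Dedicated chaperones assemble both particles, and other caps open or block the gate. When proteasome activity falls short, the transcription factor NFE2L1 is known to raise most subunit genes together through antioxidant response elements in their promoters. In bulk RNA such as this, fewer cells of a type and less RNA per cell cannot be told apart.

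The libraries held 28897422 and 34210950 recovered reads with DETA/NO and 32872785 to 34637343 without. All 5 epithelial markers and all 5 basal markers reached a value of 10, with EGFR averaging 246909 normalized reads with DETA/NO and 222201 without. The basal list summed to 309706 and 311238 with DETA/NO against 274605 to 276887 without, and EGFR made up most of each sum. KRT5 and KRT17 averaged 32825 and 27122 with DETA/NO against 27901 and 21759 without. KRT14 averaged 712 against 721, and FOXC1 2904 against 2862. Of the receptors that define triple-negative cells by their low level, PGR was at most 5.73. ESR1 had 925 and 1093 with DETA/NO against 823 to 846 without, and ERBB2 1429 and 1529 against 1830 to 1981. Of 5 fibroblast markers only COL1A1 reached 10, and the list summed to 838 and 847 with DETA/NO against 575 to 633 without. Of 5 immune markers only PTPRC did, with list sums of 36.1 and 37.7 against 12.8 to 17.6, and CD68 was listed at 0 throughout, although 100% of its span lies inside other genes, so its 0 cannot be read as absence. The 4 endothelial markers all reached 10 and summed to 499 and 558 against 325 to 363. The part of these markers in the results was not tested.

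For a few proteasome genes the deposited value says little about expression. PSMA2 and PSMA3, which encode alpha subunits that every proteasome contains, were listed at 0 in all libraries, as was PSMD9, an assembly chaperone of the base. PSMA6, another alpha subunit, was at 0 in both DETA/NO libraries and at 3.82, 0.981 and 1.85 normalized reads in the untreated ones. In the GENCODE 29 annotation of GRCh38, between 99.7% and 100% of the spans of these 4 genes lies inside other genes. This holds across the files: of 1835 protein-coding genes whose whole span lies inside other genes, 98.4% had a mean value under 10, and the share was 99.0% among the 867 of them overlapped from the opposite strand alone. It was 37.9% among the 7165 genes with no overlap. A value near 0 in such a gene cannot be read as low expression.

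PSMA1 had 15.5 and 12.3 normalized reads with DETA/NO against 19.1, 16.7 and 14.8 without, and 74.8% of its exonic bases lie inside another gene's span. PSMC2 had 195 and 190 against 205, 223 and 209, with 86.0% of its exonic bases inside other spans. PSMA1 is an alpha subunit of the core, and PSMC2 an ATPase of the base. PSMB11, a beta subunit known from the thymic cortex, has no such overlap and was at 0 apart from 1.11 in the DETA/NO library shared by replicates 1 and 2. Those 4 overlapped genes and PSMB11 fell under the filter (a mean of at least 10), which left 38 tested genes, 37 of them at 100 or more in every library. Because the value appears to depend on span and overlap, levels were not compared between genes.

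**Figure D1:**
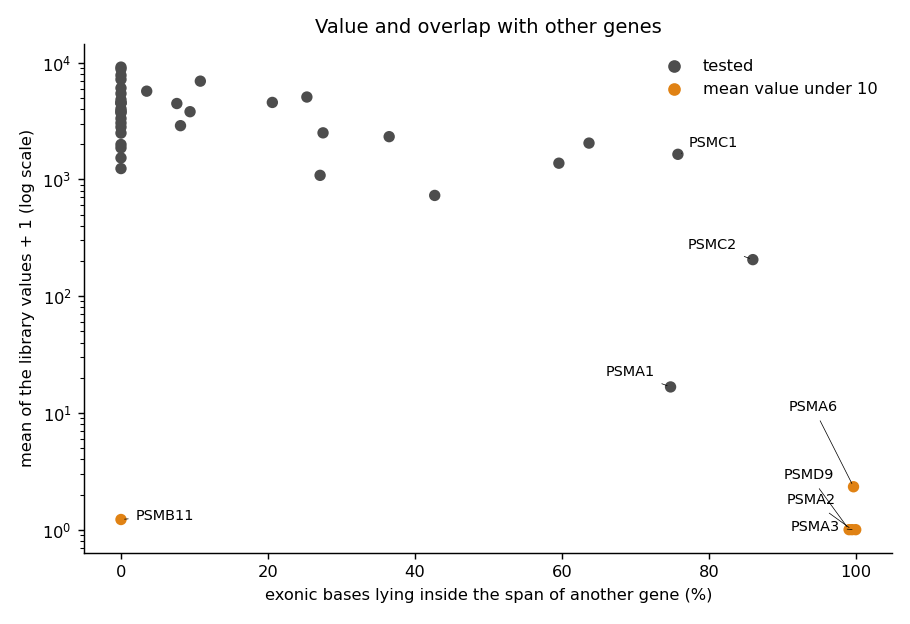
Mean value over the 5 libraries plus 1 (vertical, log scale) against the percentage of a gene's exonic bases inside the span of any other gene (horizontal), 1 point for each of the 43 proteasome genes. PSMA2, PSMA3, PSMA6 and PSMD9 lie at nearly 100% and near 0 reads, whereas PSMB11 is near 0 reads with no overlap.

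Of the 38 tested proteasome genes, 19 were called higher after DETA/NO and 1, PSMA8, was called lower (limma, Benjamini-Hochberg adjusted p under 0.05 over all 16409 genes tested), and 18 were not called. Among all genes tested 21.7% were called higher and 21.7% lower. Of the 38 genes 35 averaged at least 1000 normalized reads, and among all 6334 genes at that level 32.0% were called higher and 25.8% lower. The differences were small. The median log2 fold change was 0.09, or 6.12% higher, with an interquartile range of 0.03 to 0.15, against a median of 0.00 and an interquartile range of -0.19 to 0.17 over all genes tested and 0.02 (-0.11 to 0.14) over those with a mean of at least 1000. The 19 calls ran from 0.08 to 0.24, while the median of all genes called higher was 0.27. The summed value of the 38 genes made up 0.456% and 0.455% of all values in the DETA/NO libraries against 0.434%, 0.432% and 0.428% in the untreated ones, so the groups did not overlap.

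In 24 of the 38 genes the lower DETA/NO value exceeded the highest untreated value, against 30.4% of all genes tested and 39.8% of those with a mean of at least 1000. The number of calls depended on how the variance was modelled: limma without the mean-variance trend and the robust option called 6 of the 38 higher (15.8%), namely PSMB7, PSMC4, PSMD2, PSMD3, PSME3 and PSMF1. Under that fit 13.8% of all genes and 17.8% of those with a mean of at least 1000 were called higher, so the proteasome genes' share was close to the background. DESeq2 called 14 (36.8%) higher, against 17.0% and 27.5%, and edgeR 19, against 21.8% and 32.2%. The 6 genes and PSMA8 were the ones called under all 16 alternatives tried. Leaving out 1 library at a time gave 14 to 19 genes higher, against 17.0% to 21.7% of all genes.

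**Figure D2:**
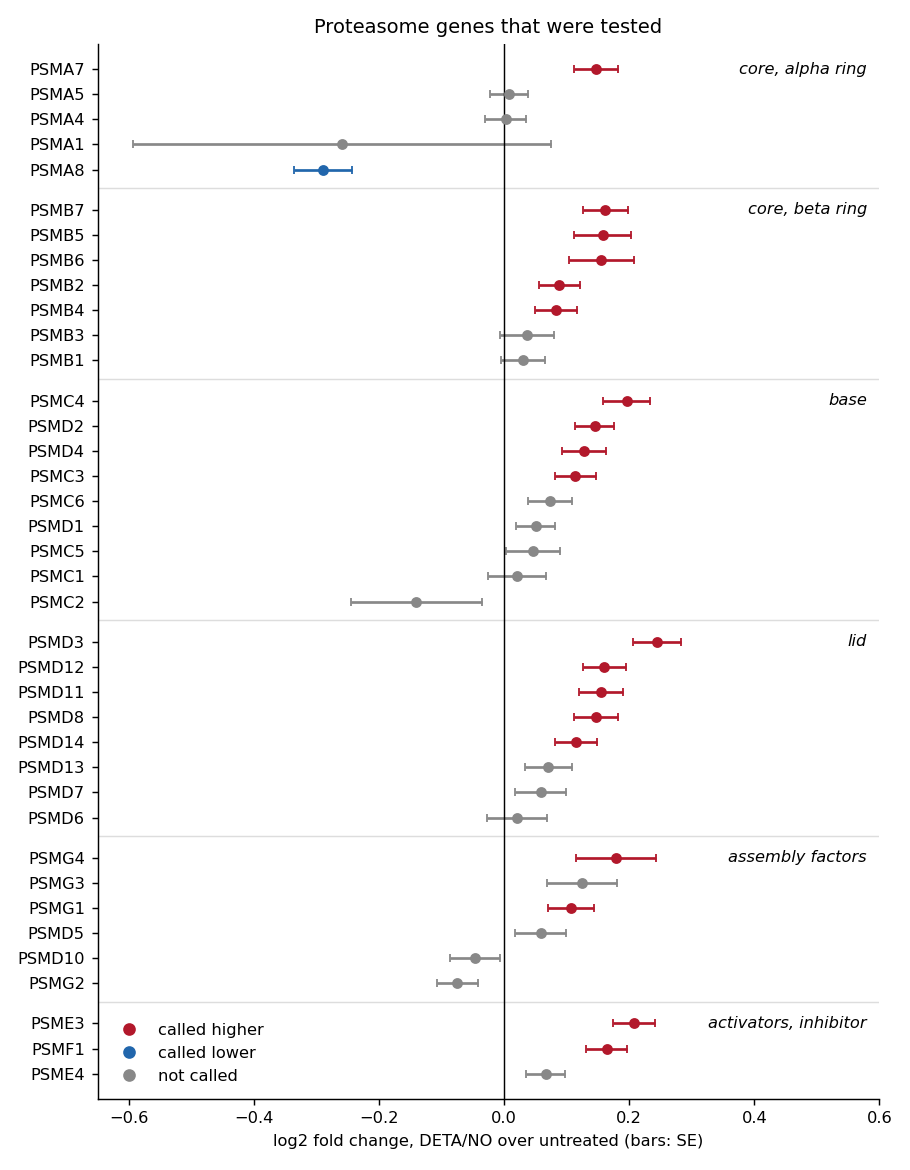
Log2 fold change of the 38 tested proteasome genes, DETA/NO over untreated (horizontal; bars are standard errors), by structural group. Most points lie between 0 and 0.24, the lid and the beta ring hold no negative value, and PSMA8 is the gene called lower. The lid gene SEM1, which the rule does not match and which was called lower, is not shown.

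In the alpha ring the 5 tested genes went different ways. PSMA7, a standard alpha subunit on chromosome 20 (62136735 to 62143440, GRCh38), had 4738 and 4799 normalized reads in DETA/NO libraries, against 4468, 4287 and 4168 in untreated libraries. All DETA/NO values were above all untreated ones, and PSMA7 was higher by 10.7% (log2 fold change 0.15 ± 0.035 SE, adjusted p = 0.000973). PSMA8 is a close paralogue of PSMA7, known from mouse testis, where it takes the place of PSMA7 in the ring. It lies on chromosome 18 at 26133852 to 26193355, with 0.9% of its span overlapped. PSMA8 had 1313 and 1380 normalized reads with DETA/NO, against 1631, 1685 and 1621 without. Every DETA/NO value lay below every untreated value, and PSMA8 fell by 0.29 on the log2 scale (SE 0.046, adjusted p = 5.43e-06), or 18.2% lower. Whether these PSMA8 reads fall in exons or introns cannot be told from a value per gene. PSMA4 and PSMA5 did not differ beyond their spread: PSMA4 averaged 4814 ± 52.8 with DETA/NO and 4806 ± 9.23 without (SD, n = 2 and n = 3), a log2 fold change of 0.00 ± 0.033, and PSMA5 had 0.01 ± 0.031.

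The beta ring carries the active sites in PSMB5 (chymotrypsin-like), PSMB6 (caspase-like) and PSMB7 (trypsin-like), and all 3 were called higher by nearly the same amount. PSMB5, on chromosome 14 (23016543 to 23035230), had 1932 and 2035 normalized reads with DETA/NO, against 1771, 1706 and 1860 without (log2 fold change 0.16 ± 0.045, adjusted p = 0.00516). PSMB6, on chromosome 17 (4796144 to 4798503), had 1346 and 1288 against 1132, 1243 and 1175 (0.16 ± 0.052, adjusted p = 0.0153). PSMB7, on chromosome 9 (124353466 to 124415444), had 3501 and 3590 against 3235, 3105 and 3170 (0.16 ± 0.036, adjusted p = 0.000497).

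In each of the 3 catalytic genes both DETA/NO libraries were above all untreated libraries, by 11.4% to 11.9% between group means on the log scale. PSMB7 kept its call whichever library was left out. Leaving out DETA/NO library 3 gave PSMB5 an adjusted p of 0.0949. For PSMB6 it was 0.0911 without untreated library 1 and 0.149 without the shared DETA/NO library. The structural subunits PSMB2 and PSMB4 were called higher by 0.09 and 0.08 (adjusted p = 0.0315 and 0.0426). PSMB2 lost its call without untreated library 1 (0.130) or DETA/NO library 3 (0.463), where its log2 fold change was 0.04. PSMB4 lost its call in 4 of 5 omissions, those of untreated library 1 or 2 and of either DETA/NO library, where its adjusted p ran from 0.0735 to 0.217. PSMB1 and PSMB3 had log2 fold changes of 0.03 and 0.04 and were not called.

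**Figure D3:**
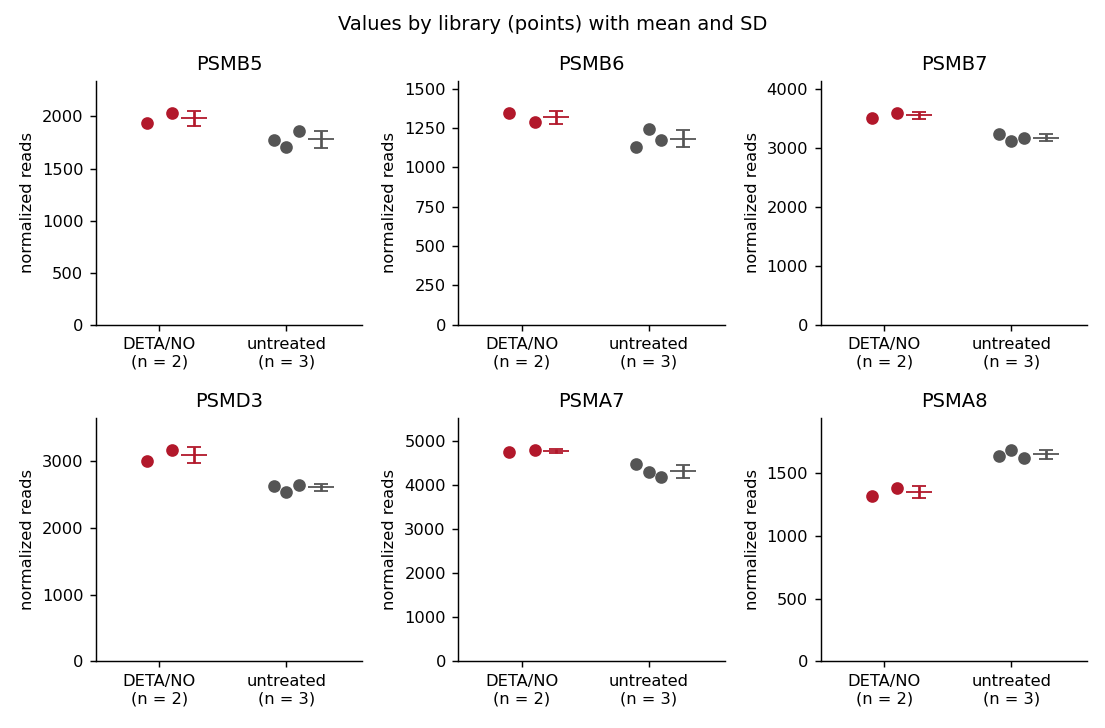
Normalized reads (vertical, from 0) of the catalytic subunit genes PSMB5, PSMB6 and PSMB7, the lid gene PSMD3 and the paralogues PSMA7 and PSMA8, with 1 point per library and the mean and SD beside it (n = 2 DETA/NO, n = 3 untreated). The groups do not overlap in any panel, and PSMA8 is the one with lower DETA/NO values.

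In the base, 4 of 9 genes were called higher, against 21.7% of all genes tested and 32.0% of those with a mean of at least 1000. PSMC4, an ATPase of the ring, lies on chromosome 19 at 39971005 to 39981441. It had 3282 and 3295 normalized reads with DETA/NO, against 2800, 2881 and 2933 without, so that the groups stood well apart (14.5% higher, log2 fold change 0.20 ± 0.037, adjusted p = 6.27e-05). PSMC3, another ATPase, was higher by 0.11 (adjusted p = 0.00494, and 0.0550 with untreated library 1 left out). PSMD2, like PSMD1 a large scaffold of the base, was higher by 0.15, and PSMD4, a ubiquitin receptor, by 0.13. PSMD1 itself had 0.05 (adjusted p = 0.205). The other ATPases were not called: PSMC6 had a log2 fold change of 0.07, PSMC5 of 0.05, PSMC1 of 0.02 and the heavily overlapped PSMC2 of -0.14 ± 0.105. PSMC1 and PSMC5 are overlapped too, with 75.8% and 63.7% of their exonic bases inside other genes' spans.

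In the lid, 5 of the 8 genes of the rule were called higher and all 8 estimates were above 0. Among all genes tested 21.7% were called higher, and 32.0% of those with a mean of at least 1000. SEM1, a lid subunit whose symbol the rule does not match, was called lower, at -0.13 (adjusted p = 0.0216), and is described below. PSMD3 showed the largest rise of the 38 genes. This lid subunit on chromosome 17 (39980797 to 39997960) had 3005 and 3178 normalized reads in DETA/NO libraries, against 2636, 2544 and 2647 in untreated libraries. The lowest DETA/NO value exceeded the highest untreated one, and the difference was 18.5% (log2 fold change 0.24 ± 0.039, adjusted p = 4.98e-06). PSMD12, PSMD11 and PSMD8, further lid subunits without enzymatic activity, were higher by 0.16, 0.15 and 0.15. PSMD14, the metalloprotease that cuts ubiquitin chains off the substrate, had 5880 and 6051 normalized reads with DETA/NO, against 5644, 5536 and 5352 without (0.11 ± 0.033, adjusted p = 0.00567). Leaving out DETA/NO library 3 took the adjusted p of PSMD14 to 0.0816 and that of PSMD8 to 0.0681. PSMD13, PSMD7, the catalytically inactive partner of PSMD14, and PSMD6 had log2 fold changes of 0.07, 0.06 and 0.02 and were not called. Of the exonic bases of PSMD6, 59.6% lie inside other genes' spans.

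The assembly factors were mixed. PSMG1 and PSMG2 form one chaperone pair of the alpha ring and PSMG3 and PSMG4 the other. PSMG4 had 788 and 776 normalized reads with DETA/NO, against 662, 668 and 744 without (log2 fold change 0.18 ± 0.064, adjusted p = 0.0240). Its call held with untreated library 3 left out, and was lost with any other library left out, with an adjusted p of at least 0.0638. PSMG1 was called higher by 0.11 (adjusted p = 0.0190), but its adjusted p was 0.0662 without untreated library 3 and 0.195 without the shared DETA/NO library. Its partner PSMG2 had 4879 and 4948 normalized reads with DETA/NO, against 5194, 5180 and 5154 without, a log2 fold change of -0.08 with every DETA/NO value below every untreated value but an adjusted p of 0.0616. PSMG2 was called lower without untreated library 3 (0.0487), under TMM scaling (0.0341) and under quantile normalization (0.00572). PSMG3 had 0.12 (adjusted p = 0.0721), and was called higher without untreated library 3 (0.0327) or DETA/NO library 3 (0.0229). The base chaperones PSMD5 and PSMD10 had 0.06 and -0.05 and were not called. Other genes cover 60.6% of the span of PSMG2, 66.1% of PSMD5 and 48.3% of PSMG4.

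Of the other caps and the inhibitor, PSME3, the nuclear activator that does not need ubiquitin, had 4933 and 4982 normalized reads with DETA/NO, against 4263, 4308 and 4305 without. Replicates lay close together and far from the other group (log2 fold change 0.21 ± 0.033, adjusted p = 5.22e-06). PSME3 lies on chromosome 17 at 42824385 to 42843758, with 46.3% of its span inside BECN1, which runs on the opposite strand. PSMF1, known as an inhibitor of the core particle, was higher by 12.0% (0.16 ± 0.033, adjusted p = 0.000154). PSME4, a nuclear cap linked to histone degradation, stood at 0.07 (adjusted p = 0.0808).

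Set side by side, the median log2 fold change was 0.16 over PSME3, PSME4 and PSMF1, 0.13 over 8 lid genes, 0.09 over 7 beta genes, 0.08 over 6 assembly factors, 0.07 over 9 base genes and 0.00 over 5 alpha genes. It was 0.06 over the 12 tested core genes together. These genes are not replicates of a condition, and the differences between groups were not tested. For the lid, the 2 DETA/NO libraries had medians of 0.10 and 0.13 over the untreated mean, against -0.01 to 0.02 in the untreated libraries. For the alpha ring they had 0.01 and -0.01, against -0.02 to 0.01. For the assembly factors they had 0.11 and 0.05, against -0.01 to 0.01, so the DETA/NO libraries were furthest apart there. The summed values were 9.63% higher with DETA/NO for the lid, 7.35% for the base, 6.63% for the beta ring, 1.42% for the assembly factors and 1.12% for the alpha ring. The alpha figures rest on 5 of 8 genes, 1 of them PSMA8, and leave out or hardly measure PSMA1, PSMA2, PSMA3 and PSMA6. The lid figures leave out SEM1, which the rule does not match and which was called lower.

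**Figure D4:**
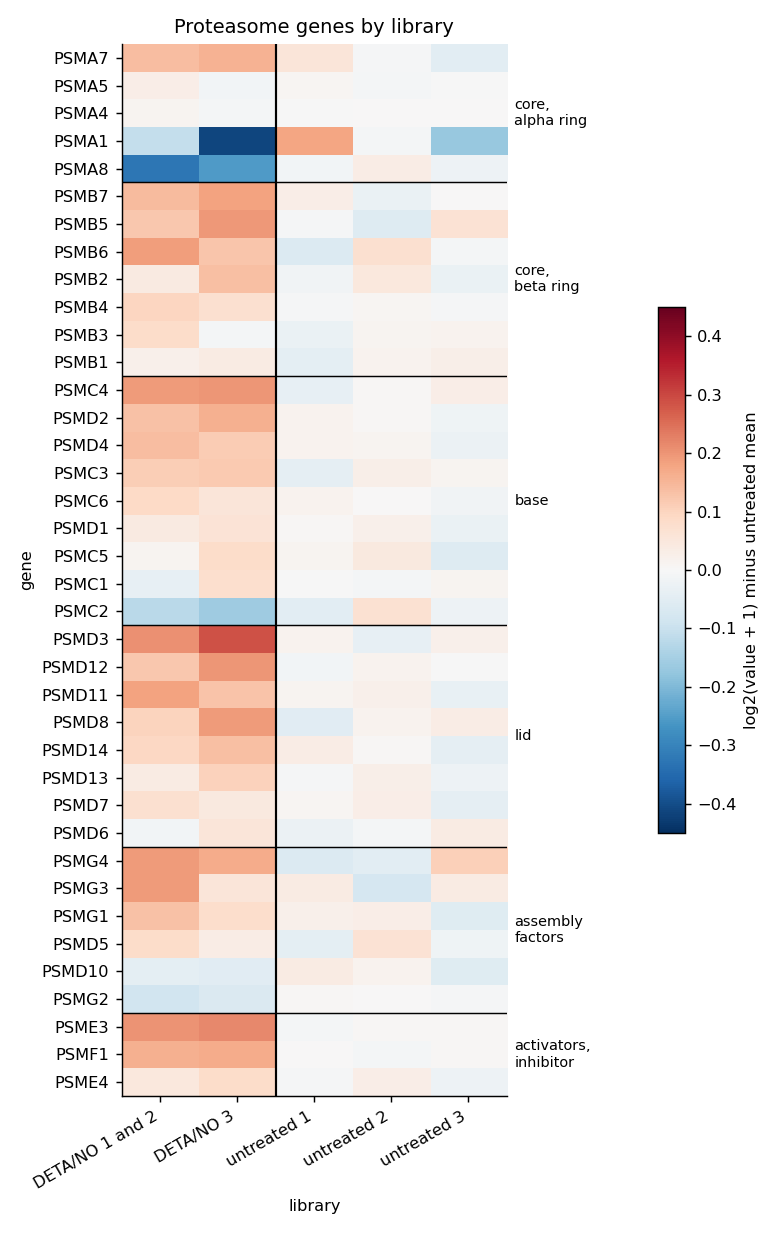
Log2(value + 1) of each tested proteasome gene minus its mean over the untreated libraries (colour), by library (columns) and gene (rows), grouped by structure. Both DETA/NO columns are red for most genes of the beta ring, base and lid, PSMA4 and PSMA5 are close to 0 in all 5 libraries, and PSMA1 varies within both groups at its low level.

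Interferon is known to raise immune-inducible counterparts of the catalytic subunits. PSMB8, which replaces PSMB5, had 2658 and 2371 normalized reads with DETA/NO, against 2158, 2142 and 2188 without (log2 fold change 0.22 ± 0.044, adjusted p = 0.000175). PSMB8 was not called by limma without trend and robust moderation (adjusted p = 0.0642). PSME2 was called higher by 0.22. PSMB9 had 0.18 with both DETA/NO values above every untreated value, but was not called (adjusted p = 0.0506). PSMB10 and PSME1 had -0.04 and 0.03 and were not called.

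Other parts of the ubiquitin and proteasome system were taken from lists chosen with earlier results of these data known. Of 13 further components and regulators, 8 were called higher and 1 lower. Among all genes tested 21.7% were called higher and 21.7% lower, and among those with a mean of at least 1000, 32.0% and 25.8%. UBE3C, a ligase that helps the proteasome finish hard substrates, was higher by 0.21, ZFAND5, an activator of the proteasome, by 0.21, the deubiquitinase UCHL5 by 0.18 and ECPAS, an adaptor bound to the proteasome, by 0.14. ADRM1, the ubiquitin receptor that holds UCHL5, was higher by 0.17 (adjusted p = 0.0309), a call that was lost (0.0976 to 0.260) with untreated library 1 or 2 or the shared DETA/NO library left out. SEM1, the smallest lid subunit, was the gene called lower, at -0.13 (adjusted p = 0.0216), but not without untreated library 1 (0.0707) or the shared DETA/NO library (0.366, log2 fold change -0.07). POMP, the chaperone that completes the core, had 0.08 (adjusted p = 0.0634).

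Among shuttle receptors, which carry ubiquitinated proteins to the proteasome, RAD23B was called higher by 0.21, UBQLN1 by 0.17 and UBQLN4 by 0.13, and UBQLN2 had -0.05 and was not called.

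Genes around NFE2L1 gave no single direction. Of 11 tested, 4 were called higher and 1 lower. For comparison, 21.7% of all genes tested and 32.0% of those with a mean of at least 1000 were called higher. NFE2L1 had 4134 and 3935 normalized reads with DETA/NO, against 3700, 3718 and 3892 without, a log2 fold change of 0.10 (adjusted p = 0.0292) that was not called without untreated library 1 or 2 or the shared DETA/NO library (0.104 to 0.319) or under quantile normalization (0.139). Its small MAF partners MAFF, MAFG and MAFK were called higher by 0.16, 0.24 and 0.33. MAFF lost its call without DETA/NO library 3 (adjusted p of 0.0849), MAFG with untreated library 2 or either DETA/NO library left out (0.0524 to 0.0691) and MAFK with untreated library 1 or either DETA/NO library left out (0.0862 to 0.190). NFE2L2, the related factor of the oxidative stress response, was lower, at -0.12 (adjusted p = 0.00184). VCP, the segregase that extracts ubiquitinated proteins and NFE2L1 itself from membranes, had -0.05 (adjusted p = 0.177).

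Of 6 cofactors of VCP, 3 were called higher and 1 lower. The share called higher was 21.7% of all genes tested and 32.0% of those with a mean of at least 1000. NSFL1C was higher by 0.27, UBXN1 by 0.19 and NPLOC4 by 0.13, and FAF1 was lower at -0.08 (adjusted p = 0.0384), though the adjusted p was 0.0655 to 0.220 with any library but untreated library 3 left out. Genes for ubiquitin and its activating enzymes went both ways. UBB, a gene of ubiquitin repeats, was higher by 0.13 (adjusted p = 0.0201), but not called with untreated library 2 or either DETA/NO library left out (0.0502 to 0.117). RPS27A, a ubiquitin and ribosomal protein fusion, was higher by 0.11, though its adjusted p was 0.0988 with DETA/NO library 3 left out. The activating enzyme UBA6 was higher by 0.10 (adjusted p = 0.0463) and lost its call with any library but untreated library 2 left out (0.0667 to 0.237). UBA1, the main activating enzyme, was lower at -0.10, though its adjusted p was 0.0580 with untreated library 2 left out and 0.0875 with the shared DETA/NO library left out.

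The promoters of proteasome genes were read for the core of the antioxidant response element, TGACNNNGC on either strand, because that is the element through which NFE2L1 is known to act on these genes. RefSeq promoter sequences (250 bases before to 50 after each start, GRCh38.p14) were at hand for 37 of the 43 genes, and 12 of them (32.4%) held a match, against 16.1% of all 27305 genes in that table. Genes with several listed starts have more sequence to search, and the 37 genes had 45 listed promoters, against 35116 for all 27305 genes. Among genes called higher 4 of 15 held a match, and among tested genes not called 7 of 16. PSMD3 and PSMD12, both called higher, are shown first, with PSMB3 and PSMD5, which were not called, for comparison. All 4 are the gene's own strand and lie before the start of transcription that RefSeq lists, and capitals mark the match. The PSMD3 stretch lies at chr17:39980744-39980804 on the plus strand, that of PSMD12 at chr17:67366708-67366768 on the minus strand, that of PSMB3 at chr17:38752611-38752671 on the plus strand and that of PSMD5 at chr9:120843022-120843082 on the minus strand.
PSMD3: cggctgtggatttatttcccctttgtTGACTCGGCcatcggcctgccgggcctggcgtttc
PSMD12: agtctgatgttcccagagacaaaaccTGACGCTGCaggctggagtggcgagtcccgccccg
PSMB3: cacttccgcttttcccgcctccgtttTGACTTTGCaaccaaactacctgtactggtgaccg
PSMD5: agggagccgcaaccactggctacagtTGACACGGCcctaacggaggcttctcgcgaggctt

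The 4 matches begin 37 bases before the start in PSMD3, 165 in PSMD12, 104 in PSMB3 and 134 in PSMD5. The CCAAT box, searched as CCAAT on either strand, was found in 19 of the 37 genes (51.4%), against 39.7% of all genes in the table, and in 8 of the 15 called higher and 8 of the 16 not called. A match describes letters in this window and shows no binding.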

How the data were processed

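Each of the 6 deposited files holds 1 normalized read count (a signal) per gene. Per the submitters' processing notes the tools included TopHat2 2.1.1 and Bowtie2 2.5.0.0 (aligners), featureCounts 2.0.3 from Subread, and DESeq2 1.38.3 run in R 4.2.2, and the build was GRCh38. FastQC 0.11.9, MultiQC 1.14 and deepTools 3.5.1 are named as well. The annotation, the counting feature and the use of strand are not given in the sources used here. How reads shared by a gene and an antisense partner were assigned is therefore not stated. Of the 867 genes wholly overlapped from the opposite strand alone, 99.0% had a mean value under 10. In GENCODE release 29, 28 pseudogenes are named after 9 of the 43 genes, and the treatment of reads that match several places is not given either.

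All values above 0 were whole multiples of 1 step per library (100% within 0.01 reads), which returned whole reads. Groups and replicate numbers came from sample titles. Identical files were averaged and counted once, and 27 rows whose names had turned into dates stayed in the tests unnamed. The test was limma 3.58.1 in R 4.3.3 (trend and robust options of eBayes) on log2 of the value plus a pseudocount of 1, run on genes averaging at least 10, with Benjamini-Hochberg adjustment over all of them and a threshold of 0.05. Fold changes are on that scale and understate those of low genes. Alternatives were edgeR 4.0.16 and DESeq2 1.42.0 on recovered reads, TMM and quantile scaling, pseudocounts of 0.5 and 5, no filter, a mean of at least 100, limma without trend and robust moderation, a replicate block, and each library left out. Where a DETA/NO library is left out, the other is assumed to vary like the untreated ones.

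Simulated counts (16337 genes, of which 50 differed at each fold size) served to test the fit. Their levels came from the mean of the untreated libraries, and the DETA/NO libraries gave only their read depth. Every gene had the same spread between libraries, which was assumed and not estimated from these data. The fit called 40.0% of the 1.2-fold, 92.0% of the 1.5-fold and 96.0% of the 2-fold genes, and 6 of its 170 calls were false. With the same spread in every gene, these counts cannot show how many calls are false where spread differs between genes. Limma without trend and robust moderation was not run on the simulated counts. Values in every library are given for the catalytic subunits and, in each structural group, for the called gene with the largest rise and fall. Outside the rule, log2 fold changes are given for up to 4 called genes per list with the smallest adjusted p. The same was done for POMP, SEM1, ADRM1, NFE2L1, VCP and UBB, and PSMB8 and NFE2L1 also have values in every library. Some genes of these lists are not reported here. PSMA1, PSMA4, PSMC2, PSMD14, PSMG2, MAFK, UBA6, the motifs and the estimates of PSMB9, PSMB10 and PSME1 were added after values were seen. So was the background of genes with a mean of at least 1000. The genes and lists were chosen with earlier results of these data known. Python 3.11.15 with pandas 2.3.3 and matplotlib 3.10.9 did the other steps.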

Additional observations from a re-analysis of the deposited data

How the results depend on the processing

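The count of proteasome genes called higher, 19, stayed within 1.5 times under the other settings except limma without trend and robust moderation, which gave 6 (15.8%, against 13.8% of all genes). DESeq2 gave 14 (36.8%, against 17.0%), without PSMB2, PSMB4, PSMB6, PSMG1 and PSMG4, and edgeR gave 19. PSMB4 was also lost under TMM scaling, quantile normalization and no filter, PSMG1 under quantile normalization, and MAFK and UBA6 under both scalings. The count called lower, 1, became 2 under TMM scaling, quantile normalization and no filter, and was 1 to 2 with a library left out. The added gene was PSMG2, and without a filter PSMA6, whose log2 fold change then rests on 0 reads in both DETA/NO libraries. With the replicate number as a replicate block, 17 genes (44.7%) were called higher with the shared DETA/NO library as number 1. Taken as number 2, that library gave 14 (36.8%). Among all genes tested the shares were 20.2% and 19.2%. Deviations of same-numbered libraries correlated at 0.0293 and 0.0301 with the first numbering. With 2 DETA/NO libraries, the deviations from their mean mirror each other. These values therefore cannot show whether same-numbered samples were paired. Among the 25 tested genes with under 10% of their span in other genes, a split added after seeing the data, 16 were higher and 1 lower. The share called among all genes with so little overlap was not computed, so these counts have no background to be read against.

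The core median log2 fold change was 0.052 under TMM scaling, 0.037 under quantile normalization and 0.083 with a filter at 100, which removes PSMA1; it was 0.066 and 0.051 with the block and 0.051 to 0.066 with a library left out. Under quantile normalization the base had 0.050 and the lid 0.108. With a library left out the base had 0.066 to 0.091, the lid 0.097 to 0.136 and the assembly factors 0.045 to 0.108. Estimates near 0 changed sign: PSMA4 was -0.0054 under TMM and -0.032 under quantile scaling, and PSMA5 -3.1e-05 and -0.0094. With a library left out PSMA4 ran from -0.0089 to 0.014, PSMA5 from -0.013 to 0.028, PSMB3 from -0.0099 to 0.083, PSMC1 from -0.036 to 0.077 (0.027 without untreated library 3) and PSMD6 from -0.013 to 0.055 (0.039 without untreated library 3). The causes were not tested. With 2 DETA/NO libraries, the simulation had 40.0% of 1.2-fold differences called, so small differences can be missed. That share rests on an assumed spread and on genes of many levels. It need not hold for the 38 tested proteasome genes, of which 35 averaged at least 1000 normalized reads.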
